A study of Homo sapiens with 12 samples.

Results

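HCT-116 cells given CPT-11 (irinotecan) for 24 h were compared with untreated HCT-116 cells, by RNA sequencing of 3 libraries each. HCT-116 is an established human colorectal carcinoma line, and both groups carry the wild type label for genotype. The 6 libraries were chosen by their sample titles, out of 12 in 4 groups of 3; the other libraries are of lovastatin-pretreated and of SHP2-silenced cells, both also given CPT-11. A shared protocol text says that all cells underwent CPT-11, whereas the treatment label of the control samples reads untreated, and that label was followed. The dose is not given. Nothing in the labels ties the replicates to separate cultures, so the p-values cover the spread among the 6 libraries, and that spread may be technical. The series concerns cGAS and STING, the enzyme that detects DNA in the cytosol and the adaptor that passes its signal on to interferon genes.

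CPT-11 is a prodrug that carboxylesterases turn into SN-38, which traps topoisomerase I on DNA, so that replication and transcription run into the trapped enzyme and strands break. In cells with working p53, such as this line, breaks stabilise p53, which switches on its target genes. The cyclin-dependent kinase inhibitor p21 is among these, and through the DREAM repressor complex it lowers genes for mitosis that carry a cell cycle homology region in their promoters.

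Levels are given in FPKM, read counts scaled to gene length and library size, for replicates 1, 2 and 3 in that order. Differences are CPT-11 minus untreated on the log2(FPKM + 1) scale ± SE, which understates the change of genes with low levels. P-values come from limma and are adjusted over all 16844 tested genes by the Benjamini-Hochberg method, with 0.05 as the threshold that a gene passes. The libraries held 14715553 to 16224271 reads assigned to genes. The epithelial markers EPCAM, KRT8 and KRT18 were high in all 6 libraries, with EPCAM at 68.5, 72.4 and 63.2 FPKM with CPT-11 and 73.5, 70.5 and 74.2 untreated. Of 15 colon epithelial markers 8 had enough reads to test, and CDX1, TFF3 and FABP1 had 0 reads.

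Replicate 3 of the CPT-11 group differed from replicates 1 and 2. Its levels rose with the GC content of genes, by 0.16 log2 units per 10 points of GC relative to the untreated mean, against slopes of -0.07 and -0.10 in replicates 1 and 2 and 0.07, -0.01 and -0.06 in the untreated libraries. Over the 16844 genes it correlated at Pearson r = 0.981 and 0.977 with CPT-11 replicates 1 and 2, which correlated with each other at 0.993. It correlated at 0.992 to 0.994 with the lovastatin libraries and at 0.990 to 0.991 with those of SHP2-silenced cells, in each case more closely than with its own group. With untreated replicates 1, 2 and 3 it correlated at 0.981, 0.977 and 0.974. CPT-11 replicates 1 and 2 correlated with the untreated libraries at 0.975 to 0.984. Whether CPT-11 replicate 3 was mislabelled or processed apart was not tested, and every value with it carries that doubt. FTH1, which encodes the iron-storing ferritin heavy chain, measured 106, 73.9 and 422 FPKM with CPT-11 and 414, 235 and 191 FPKM untreated. RN7SL2, an RNA of the signal recognition particle, measured 37.2, 17.6 and 400 FPKM with CPT-11 and 154, 98.8 and 71.1 FPKM untreated. For both genes replicate 3 lay above the untreated range while replicates 1 and 2 lay below it. FTH1 passed without replicate 3 (-1.57, adjusted p = 0.020) and not with it (-0.82, adjusted p = 0.48).

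CPT-11 raised more genes than it lowered among the larger changes. Of the 16844 genes 1209 passed (7.18%), 764 higher (4.54%) and 445 lower (2.64%), and 110 changed at least 2-fold, 96 higher and 14 lower. Without CPT-11 replicate 3, 2937 genes passed (17.4%), 1393 higher (8.27%) and 1544 lower (9.17%). Of the 1209 genes 1197 passed both with and without that library in the same direction, and 0 in opposite directions. All 96 genes with a 2-fold rise also passed without it. The fit without it gave 95 rises and 43 falls of at least 2-fold, so that the number of 2-fold falls was about 3 times as large. The libraries of both groups did not overlap in 2567 genes that were higher (15.2%) and 2521 that were lower (15%), and these include all 1209 genes that passed; separation of the groups is therefore no support beyond the test for a gene that passed. With values scaled to library totals the split was 946 higher and 337 lower, and with the 20 most counted genes left out of the totals it was 977 and 321.

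**Figure D1:**
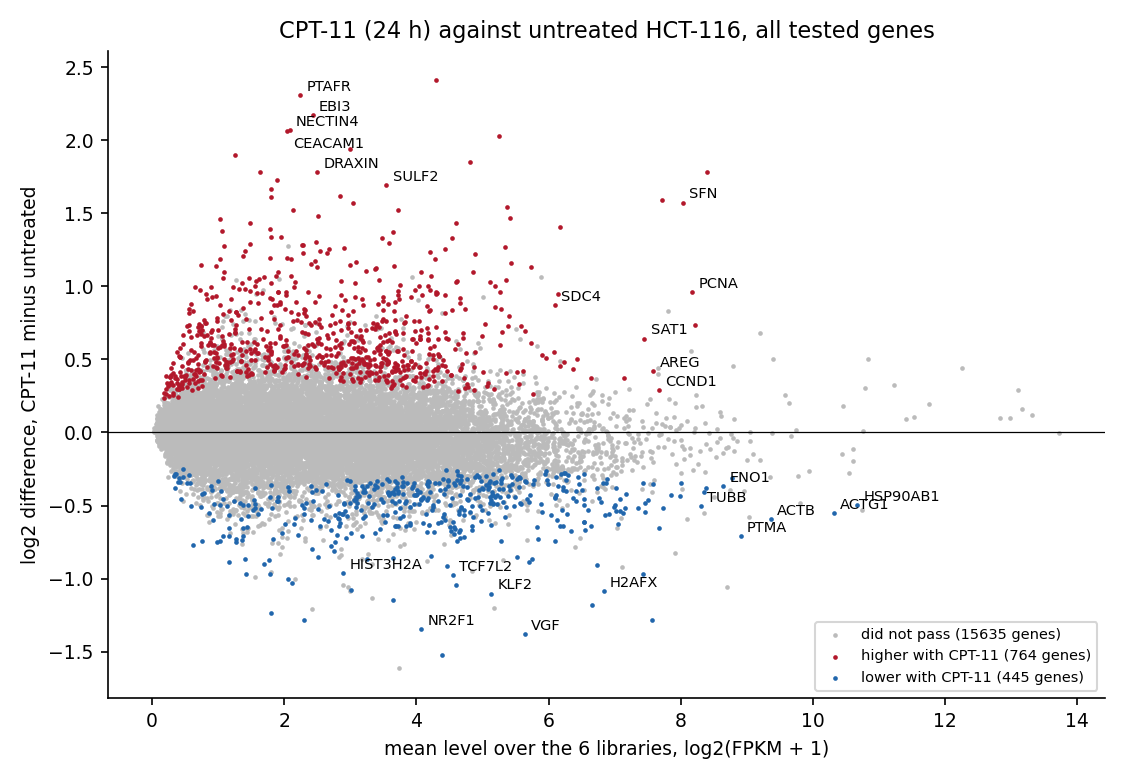
Each point is 1 of the 16844 tested genes, with its mean level over the 6 libraries as log2(FPKM + 1) on the x axis and the log2 difference, CPT-11 minus untreated, on the y axis. Red points passed as higher (764), blue points as lower (445) and grey points did not pass; the rises reach above 2 log2 units, while 14 falls are 2-fold or larger.

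The count of calls also depended on which library was left out. It was 437 and 608 without CPT-11 replicates 1 and 2, and 436, 263 and 372 without untreated replicates 1, 2 and 3. Without CPT-11 replicate 3 it was 2937, above the 1209 with all 6 libraries. Of the 96 2-fold rises 88 passed in all 6 fits with a library left out, as did 7 of the 14 2-fold falls. Of the 764 higher genes 205 did so, and of the 445 lower genes 39. Most of the smaller changes below thus passed with all 6 libraries and not in every fit with 1 left out. The gene lists were chosen with earlier results of these data known, so that a list's share above that of all genes is a description and no independent support. List counts given below for another fit are to be read against the count over all genes in that fit. Without CPT-11 replicate 3 that was 8.27% higher and 9.17% lower. With GC content and length corrected for it was 1615 genes higher and 1670 lower. Without CPT-11 replicates 1 and 2 it was 327 and 418 genes higher and 110 and 190 lower. Without untreated replicates 1, 2 and 3 it was 327, 220 and 279 genes higher and 109, 43 and 93 lower. These are all below the 764 and 445 with all 6 libraries, so that smaller list counts in these 5 fits go with fewer calls over all genes.

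**Figure D2:**
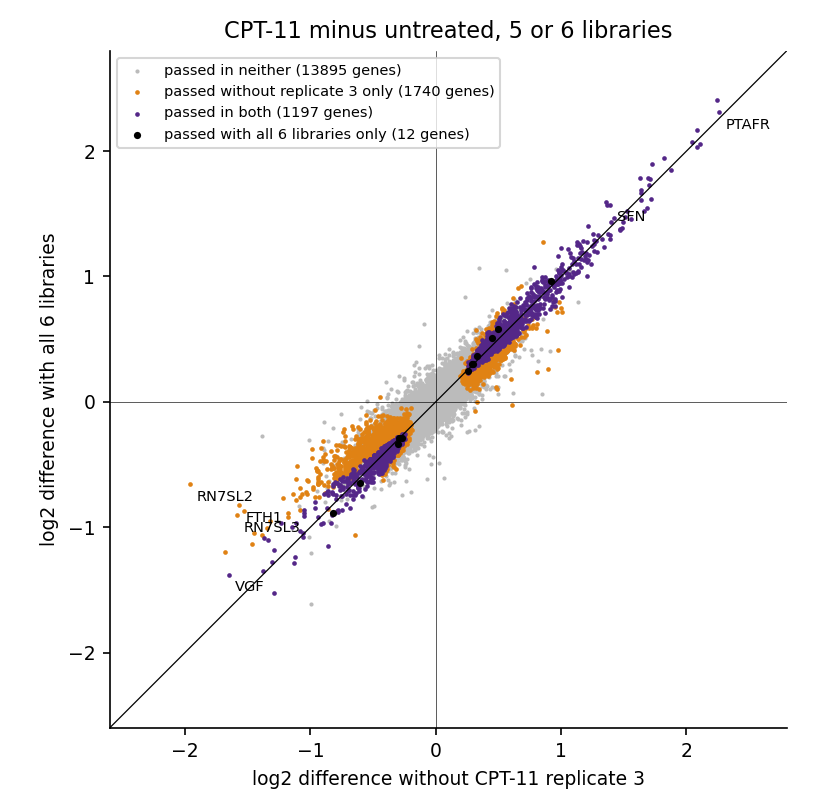
Each point is a gene, with its log2 difference without CPT-11 replicate 3 on the x axis and with all 6 libraries on the y axis; the diagonal marks equal values. The 1197 genes that passed in both (purple) lie along the diagonal, and 1740 genes passed only without replicate 3 (orange), among them FTH1, RN7SL2 and RN7SL3, which lie above the diagonal at the lower left.

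Members of the p53 list made up 31 of the 96 genes with a 2-fold rise. The list does not hold every known target, and KDM4B, described below as one, is outside it. A gene described below as outside the list, or in no list, may therefore still be a p53 target. Of 82 tested members of the p53 list 64 rose and KITLG fell, with a median of 0.91, against -0.01 over all tested genes. SERPINB5, the serpin maspin, measured 62.4, 62.4 and 55.9 FPKM with CPT-11 and 13.5, 14.3 and 14.2 FPKM untreated (2.03 ± 0.07, adjusted p = 1.8e-04). TP53INP1, a promoter of autophagy and cell death, measured 45.9, 41.1 and 41.4 against 11.4, 11.2 and 10.8 FPKM (1.85 ± 0.07). The groups were far apart in both genes. BTG2, an antiproliferative gene, rose by 1.47 ± 0.08 and lay at 58.9 to 65.4 FPKM with CPT-11 against 20.4 to 23.4 FPKM untreated. KITLG, the ligand of the receptor KIT, measured 126, 127 and 95.4 FPKM with CPT-11 and 205, 228 and 245 FPKM untreated (-0.97 ± 0.13, adjusted p = 0.0075). The death gene BBC3 (12.1, 9.14 and 21.4 against 9.60, 9.03 and 7.63 FPKM) and BAX (33.7, 28.8 and 46.3 against 25.8, 23.7 and 19.6 FPKM) did not pass, with adjusted p = 0.26 and 0.086. In both, replicate 3 lay well above the other CPT-11 libraries. BBC3, BAX and KITLG were named after their values were seen.

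The other large rises were a mixed group of surface, secreted and barrier genes. PTAFR, the receptor of platelet-activating factor, measured 6.41, 6.82 and 7.45 FPKM with CPT-11 and 0.558, 0.442 and 0.792 FPKM untreated (2.31 ± 0.11, adjusted p = 4.9e-04). EBI3, a cytokine subunit, measured 7.45, 7.12 and 8.89 against 0.700, 0.983 and 1.21 FPKM (2.17 ± 0.13). Untreated levels of both were near or below 1 FPKM, and no CPT-11 library came close to them. NECTIN4, an epithelial adhesion molecule, measured 5.41, 6.01 and 6.12 FPKM with CPT-11 and 0.690, 0.522 and 0.677 FPKM untreated (2.07 ± 0.10). CEACAM1, a cell adhesion molecule of the carcinoembryonic antigen family, measured 5.08, 6.61 and 5.21 against 0.488, 0.537 and 0.736 FPKM (2.06 ± 0.12); reads of this family may be split among near-identical copies.

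SULF2, an extracellular enzyme that trims sulfate groups from heparan sulfate, measured 15.9, 16.4 and 18.1 FPKM with CPT-11 and 4.95, 4.19 and 4.42 FPKM untreated (1.69 ± 0.09). DRAXIN, a secreted guidance protein of axons, rose by 1.78 ± 0.10 and GALNT5, which starts mucin-type sugar chains, by 1.37 ± 0.12. LAMP3, a lysosomal membrane protein, rose by 1.302 ± 0.11, CA2, a carbonic anhydrase of the gut epithelium, by 1.25 ± 0.12 and EPS8L2, a regulator of actin, by 1.27 ± 0.15. RINL (1.57 ± 0.18), BTBD19 (1.25 ± 0.14) and the hair keratin-associated gene KRTAP2-3 (1.26 ± 0.16) complete the 14 largest rises outside the p53 and mitosis lists, with SFN, described below. KRTAP2-3 has near-identical copies. None of these 14 calls was lost in any of the 19 alternative settings in which the gene was tested.

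**Figure D3:**
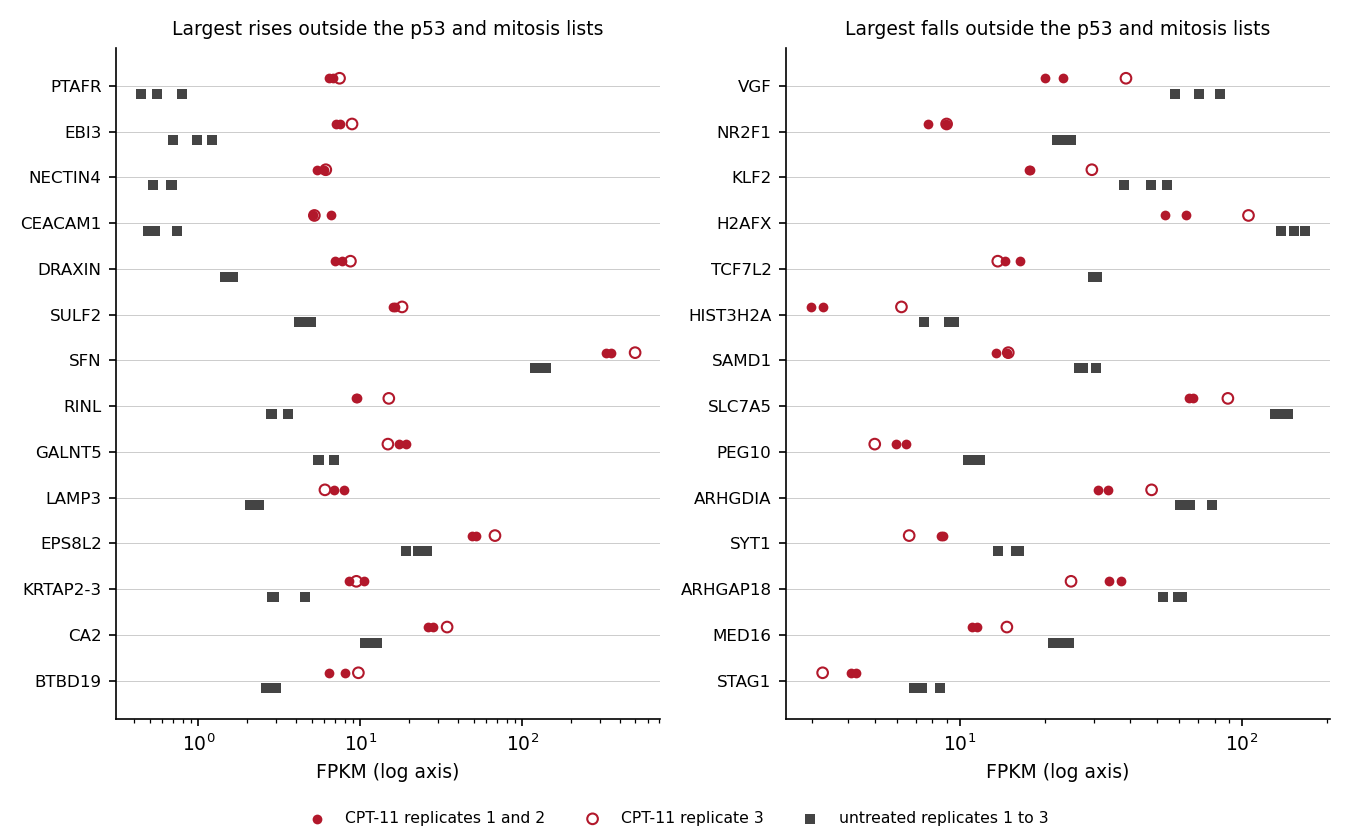
Levels in FPKM on a log axis of the 14 largest rises (left) and 14 largest falls (right) outside the p53 and mitosis lists, with a point for each library: filled red circles for CPT-11 replicates 1 and 2, open circles for CPT-11 replicate 3 and grey squares for untreated replicates. The 28 genes were chosen for groups that do not overlap, and replicate 3 is the CPT-11 library nearest to the untreated ones for VGF, KLF2, H2AFX, HIST3H2A, ARHGDIA, SLC7A5 and MED16, among others.

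Among the 96 2-fold rises 50 were in none of the gene lists, 34 of them protein-coding. The genes in this paragraph were chosen from these after their values were seen and stand for no theme. TLR3, a receptor for double-stranded RNA, measured 4.59, 4.07 and 3.36 FPKM with CPT-11 and 0.843, 1.01 and 0.856 FPKM untreated (1.39 ± 0.12, adjusted p = 0.0013). APOBEC3C, a cytidine deaminase that restricts retroviruses and retroelements, measured 75.2, 74.7 and 67.7 against 30.4, 33.6 and 33.5 FPKM (1.13 ± 0.07, adjusted p = 5.7e-04), and APOBEC3H of the same family rose by 1.05 ± 0.13; reads may be split among the family's similar copies. NLRP1, an inflammasome sensor, measured 4.03, 4.14 and 4.20 FPKM with CPT-11 and 1.67, 1.19 and 1.36 FPKM untreated (1.10 ± 0.10). In TLR3, APOBEC3C and NLRP1 the groups were far apart, though TLR3 varied within the CPT-11 group and NLRP1 within the untreated group. LCE1F, a cornified envelope gene, measured 2.08, 2.56 and 3.72 FPKM with CPT-11 and was listed at 0 in the 3 untreated libraries. ALOX5, the lipoxygenase that starts leukotriene synthesis, rose by 1.34 ± 0.12, and GJB5, a gap junction connexin, by 1.15 ± 0.12. NID1, a basement membrane glycoprotein, measured 1.13, 1.45 and 1.32 against 0.0471, 0.0215 and 0.0462 FPKM (1.14 ± 0.07).

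Several barrier and keratin genes rose. Of 28 tested members of the keratin and cornified envelope list 11 rose and 0 fell, against the background of 4.54% higher, with a median of 0.34. SFN, the epithelial 14-3-3 protein that holds cells in G2, measured 328, 353 and 497 FPKM with CPT-11 and 140, 128 and 120 FPKM untreated (1.57 ± 0.16, adjusted p = 0.0025). S100A14, an epithelial calcium-binding protein, measured 63.7, 64.0 and 63.6 against 42.9, 40.4 and 40.8 FPKM (0.61 ± 0.06), and KRT15, a keratin of basal cells, 5.13, 5.57 and 6.18 against 3.01, 2.83 and 3.08 FPKM (0.74 ± 0.10). Replicate 3 was the highest CPT-11 library for SFN, and S100A14 was steady. KRT20, a keratin of differentiated gut epithelium, was low, at 1.27, 1.17 and 1.28 FPKM with CPT-11 and 0.524, 0.649 and 0.550 FPKM untreated (0.51 ± 0.07). Also higher were KRT5, KRT7 and KRT16, all under 1 FPKM, the crosslinking enzymes TGM1 and TGM2, the transcription factor OVOL1 and S100A16. The keratins KRT8, KRT18 and KRT19 did not pass. In the fit limited to genes with a mean of at least 1 FPKM, 5 of 18 tested members of the list rose, and without a filter on low values 3 of 28. Without CPT-11 replicates 1 and 2 there were 4 and 6 rises in the list, without replicate 3 there were 15, and without untreated replicates 1, 2 and 3 there were 4, 3 and 3.

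Several genes that anchor epithelium to the basement membrane rose as well. LAMA3, a laminin alpha chain, measured 4.23, 4.48 and 4.05 FPKM with CPT-11 and 0.649, 0.705 and 0.808 FPKM untreated (1.61 ± 0.09, adjusted p = 5.0e-04), and LAMB3, a laminin beta chain, measured 21.0, 21.0 and 25.6 against 13.4, 11.9 and 11.3 FPKM (0.83 ± 0.10). ITGB4, the integrin subunit that binds laminin in hemidesmosomes, measured 94.8, 91.2 and 114 FPKM with CPT-11 and 76.4, 69.2 and 64.7 FPKM untreated (0.50, adjusted p = 0.034). COL17A1, a hemidesmosomal collagen, measured 2.82, 2.92 and 3.14 against 0.714, 0.607 and 0.537 FPKM (1.29 ± 0.09), and the heparan sulfate proteoglycan SDC4 86.8, 83.9 and 92.0 against 49.97, 45.4 and 46.9 FPKM (0.87 ± 0.07). The CPT-11 levels of LAMA3 and COL17A1 were several times the untreated ones, whereas those of ITGB4 differed by less. Over the whole integrin and laminin list 9 of 38 rose and DAG1, dystroglycan, fell by 0.44, with a median of 0.15. Of 25 collagen genes 5 rose and 0 fell, with a median of 0.20. Without CPT-11 replicates 1 and 2 the integrin and laminin list had 3 and 5 rises, without replicate 3 it had 14 and 5 falls, and without untreated replicates 1, 2 and 3 it had 3 in each case; the collagens had 2, 3, 7, 2, 1 and 2. ITGB4 and DAG1 were named after their values were seen.

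Secreted growth factors were among the rises. Of 42 tested members of that list 10 rose and 2 fell, with a median of 0.13. GDF15, a stress-induced cytokine and known p53 target, measured 272, 251 and 430 FPKM with CPT-11 and 117, 95.4 and 94.1 FPKM untreated (1.59 ± 0.20, adjusted p = 0.0063). Ligands of the epidermal growth factor receptor rose by smaller amounts. HBEGF measured 8.75, 8.86 and 8.07 against 4.17, 3.64 and 4.17 FPKM (0.94 ± 0.09), TGFA 23.6, 23.2 and 23.4 against 13.3, 14.6 and 13.5 FPKM (0.72 ± 0.07), and AREG 223, 231 and 203 against 164, 162 and 164 FPKM (0.42 ± 0.07). CPT-11 replicate 3 lay close to the other CPT-11 libraries in these ligands. HDGF was the other member that fell, by 0.37, beside KITLG, which is in this list too. The rises numbered 7 and 8 without CPT-11 replicates 1 and 2, 13 (with 4 falls) without replicate 3 and 6, 4 and 6 without untreated replicates 1, 2 and 3.

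Of 45 ephrins, semaphorins and their receptors, which guide cells and axons, 9 rose and 0 fell, with a median of 0.05. EPHB3, an ephrin receptor of the crypt epithelium, measured 5.11, 5.55 and 6.72 FPKM with CPT-11 and 2.71, 1.96 and 2.78 FPKM untreated (0.96 ± 0.14, adjusted p = 0.0093). SEMA3B, a secreted semaphorin, measured 9.10, 9.28 and 14.1 against 4.92, 4.13 and 3.57 FPKM (1.164 ± 0.18) and EFNB1, an ephrin ligand, 19.4, 18.4 and 26.6 against 10.9, 11 and 9.85 FPKM (0.94 ± 0.14). In SEMA3B and EFNB1 CPT-11 replicate 3 was the highest library. The count of rises was 5 and 6 without CPT-11 replicates 1 and 2, 8 without replicate 3 and 4, 1 and 1 without untreated replicates 1, 2 and 3. Without replicate 3 there were also 6 falls in this list.

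Some death receptor and lysosomal genes rose. Of 41 tested apoptosis genes 8 rose and 0 fell, with a median of 0.20. FAS, the receptor of FAS ligand, measured 19.97, 20.7 and 15 FPKM with CPT-11 and 5.18, 5.71 and 6.37 FPKM untreated (1.52 ± 0.13, adjusted p = 0.0014). PMAIP1, the BH3-only protein NOXA, measured 97.3, 89.3 and 90.0 against 46.1, 49.1 and 46.5 FPKM (0.95 ± 0.07), and TNFRSF10B, a receptor of the death ligand TRAIL, 57.2, 60.7 and 64.6 against 39.3, 35.7 and 36.9 FPKM (0.69 ± 0.07). These are known p53 targets. ACTA2, smooth muscle actin, which lies next to FAS on the opposite strand and overlaps it, measured 2.37, 2.44 and 2.38 FPKM with CPT-11 and 1.11, 0.911 and 0.933 FPKM untreated (0.77 ± 0.08). Reads of overlapping genes on opposite strands could not be told apart here. Of 64 genes of autophagy and lysosomes 8 rose and 0 fell, with a median of 0.14, led after LAMP3 by FUCA1, lysosomal fucosidase (38.5, 41.0 and 36.2 against 16.2, 18.2 and 18 FPKM, 1.10 ± 0.08). FUCA1 is also in the p53 list. With CPT-11 replicate 1, 2 or 3 left out the rises in the apoptosis list numbered 5, 5 and 14, and with untreated replicate 1, 2 or 3 left out 5, 4 and 5; in the lysosome list they numbered 4, 4, 13, 4, 3 and 3. Without CPT-11 replicate 3 each of these lists also had 3 falls, in a fit where 9.17% of all tested genes were lower.

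Some interferon-stimulated genes rose by small amounts. Of 47 tested members 13 rose and 0 fell, with a median of 0.32, and 26 rose and 0 fell without CPT-11 replicate 3. With GC content and length corrected for, and also with all 12 libraries in the fit, 27 rose and 1 fell. OASL and OAS3, of the family that senses double-stranded RNA, measured 17.9, 17.1 and 18.4 FPKM and 21.1, 21.5 and 21.0 FPKM with CPT-11, against 11.1, 11.7 and 10.5 FPKM and 14.2, 13.9 and 13.5 FPKM untreated (0.64 ± 0.07 and 0.58 ± 0.06, adjusted p = 0.0045 and 0.0034). TRIM5, a restriction factor of retroviral capsids, measured 9.01, 8.80 and 8.65 against 4.77, 5.42 and 5.95 FPKM (0.63 ± 0.09); it overlaps TRIM22 on the opposite strand. No member reached a 2-fold change. TRIM5 belongs also to the TRIM ubiquitin ligases, of which 10 of 50 rose and 0 fell, with a median of 0.06. TAP1, which carries peptides to class I molecules and overlaps PSMB9 on the opposite strand, measured 18.1, 18 and 23.9 against 9.86, 10.1 and 8.98 FPKM (0.97 ± 0.12), within an antigen presentation list of which 4 of 19 rose and 0 fell. The interferon count was 2 and 4 without CPT-11 replicates 1 and 2, and 4, 2 and 4 without untreated replicates 1, 2 and 3; the TRIM count was 3, 7, 2, 0 and 2, and 12 with 2 falls without CPT-11 replicate 3.

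TMEM173, which encodes STING (chr5:139475534-139482935), measured 8.69, 7.60 and 10.4 FPKM with CPT-11 and 4.50, 4.16 and 4.05 FPKM untreated (0.91 ± 0.12, adjusted p = 0.0067). Every CPT-11 library was well above the untreated range. Of 18 tested members of the cGAS-STING list the other that passed was TRIM32, a ubiquitin ligase of STING, at 0.39 ± 0.07, and 0 fell; the list's median was 0.01. Without CPT-11 replicate 3 the list had 3 rises and 3 falls and a median of -0.03, and with GC content and length corrected for it had 5 rises and 3 falls. CGAS had 2, 1 and 0 reads with CPT-11 and 3, 0 and 2 reads untreated, and IFNB1, interferon beta, had 0, 9 and 4 reads with CPT-11 and 1 read in each untreated library, so that neither could be tested at this depth. CXCL10, an interferon-induced chemokine, measured 1.36, 1.28 and 1.54 against 0.999, 0.751 and 0.864 FPKM and did not pass (0.36 ± 0.09, adjusted p = 0.055). The chemokine CCL5 did not pass either (0.09 ± 0.16, adjusted p = 0.79). CXCL10 did pass as higher with 5 in place of 1 added to the FPKM values, and with sample weights. It also passed with values scaled to library totals, with or without the 20 most counted genes.

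CES2, a carboxylesterase that converts CPT-11 into SN-38, measured 15.8, 15.9 and 17.4 FPKM with CPT-11 and 8.19, 8.48 and 7.97 FPKM untreated (0.91 ± 0.07, adjusted p = 0.0012). CES2 is also a member of the p53 list and is counted among its rises. TOP1, topoisomerase I, measured 105, 112 and 84.5 against 100.9, 104 and 112 FPKM and did not pass (-0.08 ± 0.11, adjusted p = 0.71). Its difference was 0.04 without CPT-11 replicate 3, the lowest of the 6 libraries. PTPN11, which encodes SHP2, also did not pass (-0.19 ± 0.07, adjusted p = 0.17). PTPN11 passed as lower with GC content and length corrected for (adjusted p = 0.024). It also passed with that correction and without CPT-11 replicate 3, and with sample weights. More genes passed over all in these fits than in the main one.

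**Figure D4:**
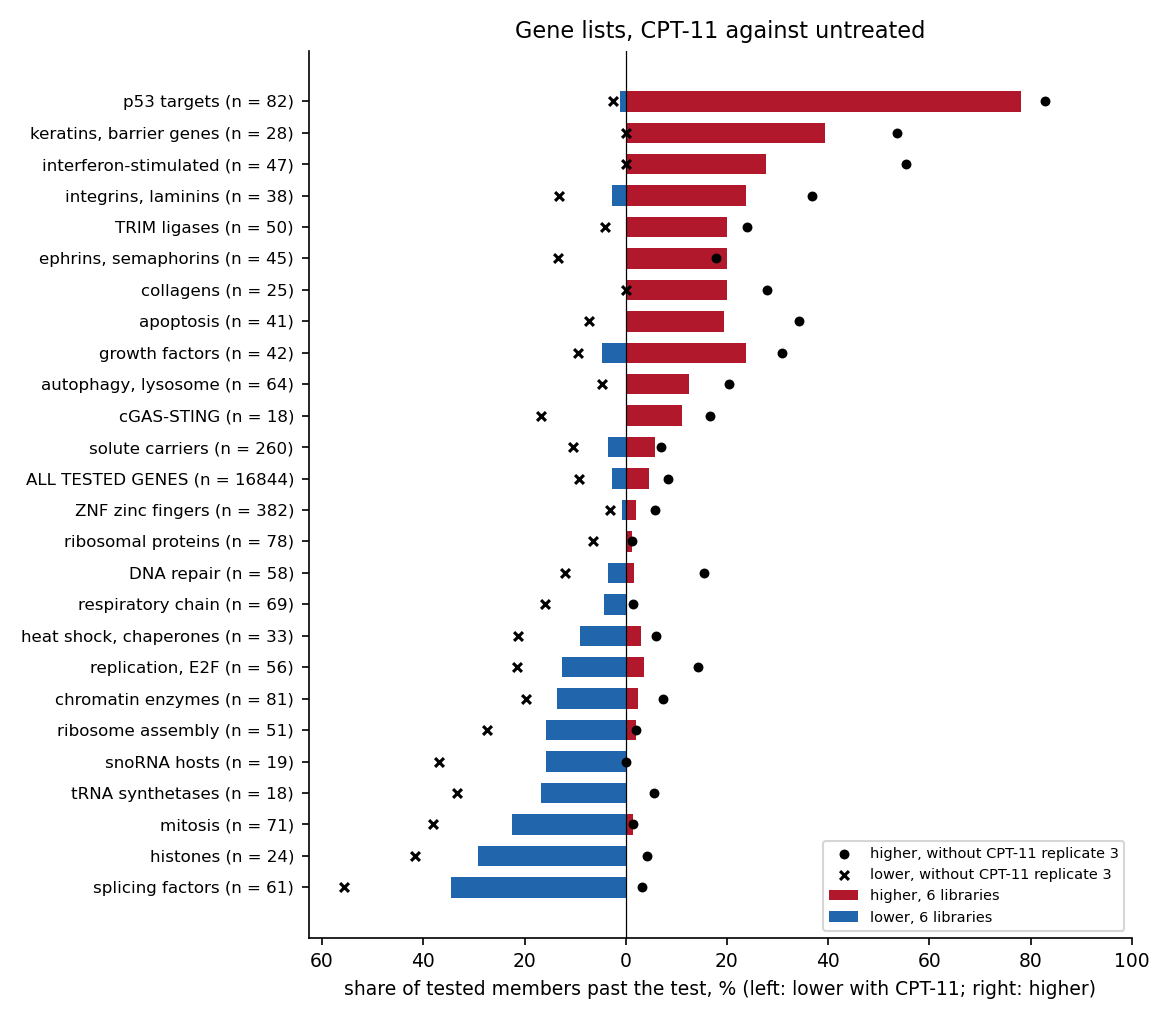
Bars give the share of tested members of each gene list that passed as higher (red, to the right) or lower (blue, to the left) with all 6 libraries, and dots and crosses give the same shares without CPT-11 replicate 3. The p53, keratin and interferon lists extend farthest to the right, and splicing factors, histones and mitosis genes farthest to the left; all tested genes had 4.54% higher and 2.64% lower.

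Among genes for mitosis the calls were mostly falls. Of 71 tested members 16 fell and CDK1 rose, with a median of -0.30; 27 fell without CPT-11 replicate 3 and 46 once GC content and gene length were corrected for. CDC20, which activates the ubiquitin ligase that starts anaphase, measured 56.3, 55.9 and 70.5 FPKM with CPT-11 and 151, 138 and 129 FPKM untreated (-1.18 ± 0.11, adjusted p = 0.0019). PLK1, a mitotic kinase, measured 13.7, 16 and 15.2 against 32.5, 31.8 and 31.1 FPKM (-1.04 ± 0.08, adjusted p = 7.8e-04), and CCNB1, cyclin B1, 56.2, 54.8 and 55.7 against 82.6, 89.9 and 89.4 FPKM (-0.64 ± 0.06). All 3 separated the groups by wide gaps. CDK1, the kinase partner of cyclin B1, was higher, at 53.5, 54.0 and 46.7 FPKM with CPT-11 and 40.9, 39.2 and 41.7 FPKM untreated (0.33, adjusted p = 0.048), and was named after its values were seen. In bulk RNA, fewer cells in mitosis and less RNA per cell cannot be told apart. The number of falls was 7 and 9 without CPT-11 replicates 1 and 2, and 6, 5 and 8 without untreated replicates 1, 2 and 3.

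The promoters of the mitosis list were searched for the cell cycle homology region. TTTGAA, searched on both strands from 250 bases before to 50 after the RefSeq gene start, was found in 38 of 59 promoters of the list (64.4%) and in 1019 of 10688 promoters of tested genes (9.53%). Among lower genes the share was 13.5%, and 11.3% among those outside the mitosis list. It was 9.14% among genes lower without CPT-11 replicate 3, 9.15% among higher genes and 15.5% among the 2-fold rises. CCAAT was in 72.9% of the list's promoters against 36.5% of all. The 250 bases before the start are shown for 3 genes of the list that fell and whose promoters hold the motif, PLK1, CDC20 and CENPA (the centromeric histone H3 variant, 6.88, 6.79 and 8.65 against 13.8, 11.9 and 11.3 FPKM, -0.66 ± 0.12), and for AEN, a p53-induced nuclease. AEN measured 19.96, 19.8 and 25.1 FPKM with CPT-11 and 14.8, 15.3 and 13.7 FPKM untreated (0.53 ± 0.10, adjusted p = 0.028). The sequences are from RefSeq on GRCh38.p14, 5′ to 3′ on the gene's strand, with TTTGAA or its complement TTCAAA in capitals for the first 3 and a match to the p53 response element with 2 mismatches in capitals for AEN.
PLK1 (chr16:23678639-23678888, + strand): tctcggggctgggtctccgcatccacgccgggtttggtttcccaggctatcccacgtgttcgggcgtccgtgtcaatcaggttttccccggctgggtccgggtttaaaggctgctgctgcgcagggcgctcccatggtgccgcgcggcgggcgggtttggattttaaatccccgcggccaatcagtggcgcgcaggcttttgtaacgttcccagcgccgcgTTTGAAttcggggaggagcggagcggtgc
CDC20 (chr1:43358731-43358980, + strand): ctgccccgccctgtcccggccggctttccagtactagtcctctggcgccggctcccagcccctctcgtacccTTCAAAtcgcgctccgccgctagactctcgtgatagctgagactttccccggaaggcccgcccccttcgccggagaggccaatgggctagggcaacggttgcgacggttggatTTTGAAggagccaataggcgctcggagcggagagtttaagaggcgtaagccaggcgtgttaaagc
CENPA (chr2:26785806-26786055, + strand): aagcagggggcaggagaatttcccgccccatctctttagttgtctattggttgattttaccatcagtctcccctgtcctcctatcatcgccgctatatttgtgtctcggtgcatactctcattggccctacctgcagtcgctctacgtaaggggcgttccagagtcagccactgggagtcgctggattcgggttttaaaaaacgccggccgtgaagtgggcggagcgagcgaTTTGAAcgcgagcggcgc
AEN (chr15:88621090-88621339, + strand): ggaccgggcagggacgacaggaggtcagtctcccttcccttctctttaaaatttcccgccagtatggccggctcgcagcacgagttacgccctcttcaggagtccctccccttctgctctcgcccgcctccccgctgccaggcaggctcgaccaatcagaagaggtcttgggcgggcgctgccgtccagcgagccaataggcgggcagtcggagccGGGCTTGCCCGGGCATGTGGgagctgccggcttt
The motif begins 29 bases before the start in PLK1 and 18 bases before it in CENPA, CDC20 holds 2 copies, and the p53 match in AEN begins 34 bases before the start. The p53 element, with at most 2 mismatches, was in 1 of 68 promoters of the p53 list and in 0 of 58 promoters of the 2-fold rises. It was in 8 of 503 promoters of higher genes (1.59%), in 1 of 325 of lower genes (0.308%) and in 41 of 10688 of all (0.384%), which are small counts. Without CPT-11 replicate 3 it was in 1.15% of the promoters of higher genes and 0.448% of those of lower genes. The interferon-stimulated response element GAAANNGAA was in 68.3% of the promoters of the interferon list, 6.36% of those of higher genes and 6.25% of all. Among motifs not tied to a list, the E-box CACGTG was in 16% of promoters of lower genes, 6.96% of those of higher genes and 9.92% of all. The AP-1 motif TGANTCA was in 2.77%, 7.75% and 4.56%, in the same order. Without CPT-11 replicate 3 the E-box was in 13.3% of promoters of lower genes and 7.11% of those of higher genes. The AP-1 motif was then in 3.05% and 7%. These shares describe letters in a window and not binding.

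Many splicing factors fell by small amounts. Of 61 tested members 21 fell and 0 rose, against the background of 2.64% lower, with a median of -0.26. HNRNPA2B1, a nuclear ribonucleoprotein, measured 100.9, 109 and 98.6 FPKM with CPT-11 and 163, 155 and 160 FPKM untreated (-0.63 ± 0.07, adjusted p = 0.0035). HNRNPM measured 52.4, 57.4 and 62.0 against 90.7, 88.7 and 89.6 FPKM (-0.64 ± 0.08), and HNRNPU, which also organises chromatin, 37.0, 37.6 and 33.5 against 51.1, 51.0 and 52.0 FPKM (-0.50 ± 0.07). Replicate 3 lay with the other CPT-11 libraries in these genes, and none of its values reached the untreated range. Among the 21 were 10 ribonucleoproteins of the HNRNP family and the serine- and arginine-rich factors SRSF1, SRSF2, SRSF3 and SRSF7. Without CPT-11 replicate 3, 34 fell. The falls numbered 5 and 13 without CPT-11 replicates 1 and 2, and 5, 2 and 3 without untreated replicates 1, 2 and 3, while the median stayed between -0.29 and -0.21 in the 19 alternatives.

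**Figure D5:**
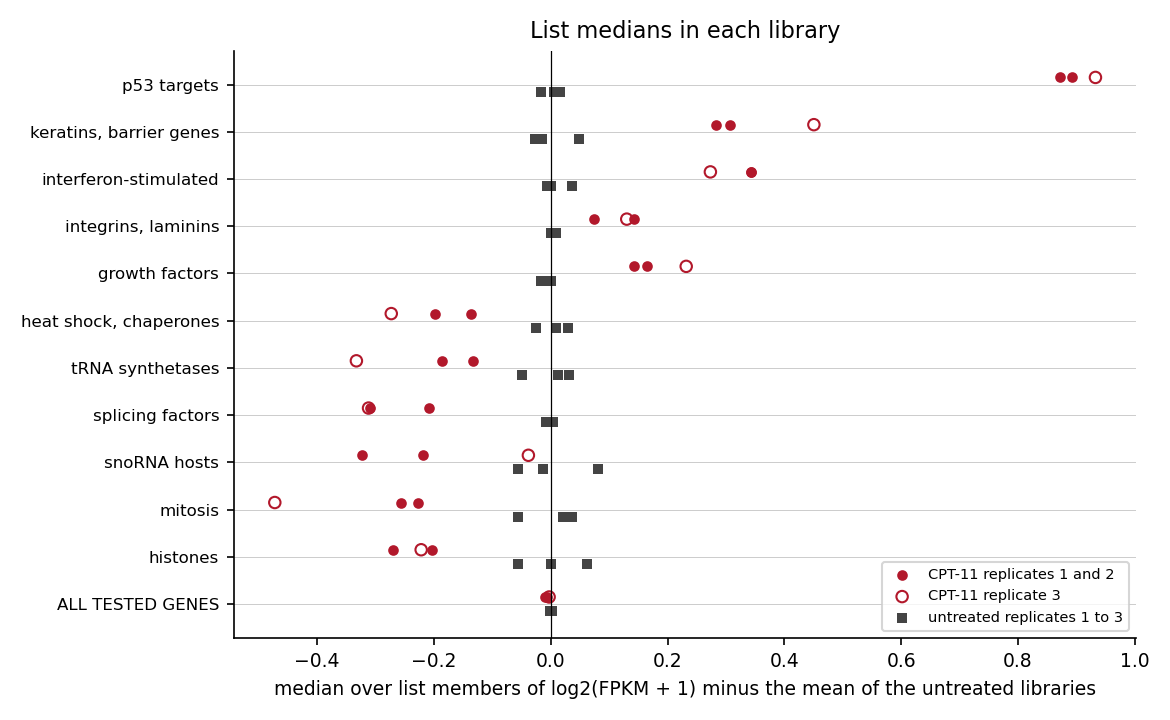
For each list, the median over its tested members of log2(FPKM + 1) minus the mean of the untreated libraries, with a point per library: filled red circles for CPT-11 replicates 1 and 2, open circles for CPT-11 replicate 3 and grey squares for untreated replicates. The splicing, tRNA synthetase and mitosis lists lie below 0 in all 3 CPT-11 libraries and the p53 list near 0.9, whereas replicate 3 lies inside the untreated range for the snoRNA host genes.

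Some chromatin, histone and protein synthesis genes fell. Of 81 chromatin enzymes 11 fell and 2 rose, with a median of -0.12. NSD2, a methyltransferase of histone H3, measured 11.2, 10.8 and 10.3 FPKM with CPT-11 and 17.6, 16.6 and 16.9 FPKM untreated (-0.62 ± 0.07, adjusted p = 0.0040). The exceptions were KAT2B, an acetyltransferase (3.20, 2.89 and 2.87 against 1.62, 1.61 and 1.71 FPKM, 0.59 ± 0.09), and KDM4B, a demethylase and known p53 target (7.45, 7.15 and 9.66 against 4.51, 4.36 and 4.12 FPKM, 0.76 ± 0.12). Of 24 histone genes 7 fell and 0 rose, with a median of -0.24. H2AFX, the histone variant that is phosphorylated at DNA breaks, measured 63.5, 53.4 and 105 FPKM with CPT-11 and 167, 152 and 138 FPKM untreated (-1.09 ± 0.23, adjusted p = 0.036). Replicate 3 lay between the groups for this gene, and its call was lost without any 1 library other than replicate 3. H1F0, a linker histone of resting cells, was steadier, at 188, 194 and 208 against 276, 266 and 255 FPKM (-0.43 ± 0.07). The chromatin falls numbered 1, 1 and 16 without CPT-11 replicates 1, 2 and 3, and 1 without each untreated library, and the histone falls 0, 1, 10, 0, 0 and 0.

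Of 51 genes of ribosome assembly 8 fell and 1 rose, with a median of -0.13; 3 fell with values scaled to library totals and 2 with the 20 most counted genes left out of these. Of 18 tRNA synthetases 3 fell and 0 rose, with a median of -0.26. UBTF, a transcription factor of the ribosomal RNA genes, measured 18.1, 18.4 and 18.7 FPKM with CPT-11 and 24.6, 24.6 and 22.9 FPKM untreated (-0.37 ± 0.06, adjusted p = 0.019). MARS, methionyl-tRNA synthetase, measured 27.1, 29.1 and 27.1 against 40.5, 38.7 and 38.5 FPKM (-0.48 ± 0.06). Of 78 ribosomal protein genes 0 fell with all 6 libraries. Without CPT-11 replicate 3, 5 of them fell, in a fit where 9.17% of all tested genes were lower. The list's median was -0.11, -0.06 and 0.11 in CPT-11 replicates 1, 2 and 3. The p53 target RPS27L rose, at 13.9, 12.3 and 14.5 against 6.05, 6.25 and 5.84 FPKM (1.04 ± 0.09). Of 33 heat shock and chaperone genes 3 fell and 1 rose, but 17 fell in the fit corrected for GC content and length. The ribosome assembly falls numbered 0, 1 and 14 without CPT-11 replicates 1, 2 and 3, and 0 without each untreated library.

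Solute carriers went both ways. Of 260 tested 15 rose (5.77%) and 9 fell (3.46%), shares near the 4.54% and 2.64% of all genes, with a median of 0.03. The falls described here are of amino acid carriers, a group that no list defined. SLC7A5, the carrier of large neutral amino acids, measured 65, 67.0 and 89.1 FPKM with CPT-11 and 145, 137 and 131 FPKM untreated (-0.91 ± 0.12, adjusted p = 0.0083). SLC7A11, the cystine and glutamate exchanger, measured 9.25, 9.06 and 8.76 against 14, 14.9 and 15.1 FPKM (-0.64 ± 0.07), and SLC7A1, a carrier of arginine and lysine, 19.2, 19.5 and 19.4 against 28.9, 29.1 and 27.6 FPKM (-0.54 ± 0.06). SLC7A11 and SLC7A1 varied little within either group, and replicate 3 was the highest CPT-11 library for SLC7A5. SLC38A2, a glutamine carrier named after its values were seen, measured 101.4, 97.5 and 92.0 against 136, 143 and 150 FPKM (-0.56, adjusted p = 0.0067). The largest rise among the carriers was that of SLC44A5, of the choline transporter-like family, at 3.63, 3.72 and 3.07 against 1.48, 1.59 and 1.48 FPKM (0.83 ± 0.10). MTHFD1L, of mitochondrial folate metabolism, fell, at 16.5, 15.2 and 16.8 against 26.2, 24.8 and 24.1 FPKM (-0.60 ± 0.07), and ATF3, a transcription factor of the stress response, rose, at 17.5, 16.3 and 17.2 against 8.36, 7.57 and 7.93 FPKM (1.01 ± 0.07). Of the stress response list 3 of 33 rose and 3 fell, and 12 fell without CPT-11 replicate 3. The carriers' falls numbered 4, 5 and 27 without CPT-11 replicates 1, 2 and 3, and 5, 2 and 4 without untreated replicates 1, 2 and 3, with 4, 7, 18, 5, 3 and 3 rises in the same order.

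Lipid and redox genes moved singly. ABCA12 and ABCA1, lipid transporters of the skin barrier and of cholesterol efflux, measured 1.88, 1.71 and 1.46 FPKM and 1.58, 1.58 and 1.51 FPKM with CPT-11, against 0.220, 0.174 and 0.252 FPKM and 0.457, 0.233 and 0.328 FPKM untreated (1.14 ± 0.08 and 0.94 ± 0.08). ABCA12 is also in the p53 list. SCD, the stearoyl-CoA desaturase, fell, at 141, 145 and 139 against 208, 203 and 209 FPKM (-0.54 ± 0.06). Among 41 redox and iron genes 4 rose and 3 fell. AKR1B10, an aldo-keto reductase, measured 4.39, 4.72 and 4.92 FPKM with CPT-11 and 0.713, 0.543 and 0.893 FPKM untreated (1.73 ± 0.11, adjusted p = 5.3e-04), and NQO1, a quinone reductase, 122, 116 and 129 against 165, 164 and 163 FPKM (-0.42 ± 0.07). These enzymes moved in opposite directions.

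The largest falls outside the p53 and mitosis lists were of genes with varied roles. VGF, a secreted precursor of neuropeptides, measured 23.2, 19.96 and 38.8 FPKM with CPT-11 and 83.5, 70.2 and 57.9 FPKM untreated (-1.38 ± 0.24, adjusted p = 0.019). NR2F1, an orphan nuclear receptor, measured 8.93, 7.71 and 8.98 against 24.9, 22.8 and 22 FPKM (-1.35 ± 0.09, adjusted p = 5.7e-04). TCF7L2, the partner of beta-catenin in Wnt signalling, measured 16.4, 14.5 and 13.6 against 29.6, 30.6 and 29.8 FPKM (-0.97 ± 0.08, adjusted p = 0.0013). NR2F1 and TCF7L2 were tight in both groups, whereas VGF spread widely. The transcription factor KLF2 (17.8, 17.6 and 29.4 against 54.3, 47.5 and 38.1 FPKM, -1.10 ± 0.21) spread in the same way. SAMD1, which binds CpG islands, fell by 0.92, PEG10, an imprinted gene derived from a retrotransposon, by 0.87, and the cohesin subunit STAG1 by 0.81. SYT1, a calcium sensor of synaptic vesicles, fell by 0.86 and the Mediator subunit MED16 by 0.85. HIST3H2A, a histone, fell by 0.96. Of the 14 largest falls NR2F1, TCF7L2, SAMD1 and PEG10 kept their call in all 19 alternatives. Each of VGF, KLF2, H2AFX and HIST3H2A no longer passed without CPT-11 replicate 1 or 2, or without untreated replicate 1 or 2.

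ARHGDIA and ARHGAP18 were among the 14 largest falls. ARHGDIA measured 33.5, 30.8 and 47.8 FPKM with CPT-11 and 78.3, 65.5 and 60.4 FPKM untreated (-0.86 ± 0.17, adjusted p = 0.029). ARHGAP18 measured 33.9, 37.4 and 24.8 against 52.6, 59.4 and 61.4 FPKM (-0.85 ± 0.15). Replicate 3 was the highest CPT-11 library for ARHGDIA and the lowest for ARHGAP18. The actins ACTB (526, 562 and 486 against 786, 815 and 772 FPKM, -0.59 ± 0.09) and ACTG1 (996, 1016 and 1096 against 1551, 1553 and 1459 FPKM, -0.55 ± 0.09) and the tubulin TUBB (260, 270 and 251 against 361, 374 and 374 FPKM, -0.50 ± 0.07) were among the 6 largest falls in level. ACTA2, another actin, rose, and in the tubulin list, of which 3 of 19 fell, TUBA4A rose, at 22.7, 23.6 and 22.1 against 12.9, 11.5 and 12.6 FPKM (0.84, adjusted p = 0.0014).

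The others of those 6 were HSP90AB1, a cytosolic chaperone (1372, 1478 and 1215 against 1820, 1915 and 1993 FPKM, -0.50 ± 0.11), PTMA, prothymosin alpha (364, 370 and 357 against 625, 595 and 569 FPKM, -0.71 ± 0.08), and the glycolytic enzyme ENO1 (336, 336 and 372 against 458, 442 and 445 FPKM, -0.37 ± 0.08). All have processed copies in the genome, and reads may be split among these; PTMAP5, a copy of PTMA, fell as well, at 128, 88.7 and 112 FPKM with CPT-11 against 300, 256 and 241 FPKM untreated (-1.28 ± 0.15). The calls of HSP90AB1 and ENO1 were lost when values were scaled to library totals. The largest rises in level outside the p53 and mitosis lists, among genes that also passed without CPT-11 replicate 3, were after SFN those of PCNA, the replication clamp (373, 401 and 364 against 187, 200 and 197 FPKM, 0.96 ± 0.07), SAT1, which acetylates polyamines (214, 220 and 202 against 136, 136 and 134 FPKM, 0.64 ± 0.07), AREG, the cyclin CCND1 (218, 223 and 227 against 181, 184 and 180 FPKM, 0.29 ± 0.06) and SDC4. In the replication list, which holds PCNA, 2 of 56 rose and 7 fell, among these 5 subunits of the MCM helicase. Without CPT-11 replicate 3, 8 rose and 12 fell, and without replicate 1 the falls numbered 3.

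Noncoding RNAs with large rises included PINCR and a transcript within MDM2. Of 675 long intergenic RNAs 23 rose (3.41%) and 15 fell (2.22%), and of 990 antisense RNAs 26 rose (2.63%) and 13 fell (1.31%). All of these shares were below the 4.54% higher and 2.64% lower of all tested genes, those of the antisense RNAs by more. PINCR, a p53-induced noncoding RNA of the X chromosome, measured 2.27, 2.14 and 1.60 FPKM with CPT-11 and 0.0310, 0.113 and 0.122 FPKM untreated (1.46 ± 0.10). AC025423.1 (6.77, 4.72 and 5.82 against 1.66, 1.01 and 2.90 FPKM, 1.29 ± 0.24) lies within MDM2, the p53 ubiquitin ligase, on the same strand, and MDM2 rose too, at 67.5, 66.0 and 49.4 against 18.3, 20.6 and 21.4 FPKM (1.54 ± 0.13), so that their reads cannot be told apart.

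Among noncoding RNAs that fell, SNHG19, a host of small nucleolar RNAs, measured 29.6, 32.7 and 44.7 FPKM with CPT-11 and 83.0, 61.8 and 55.1 FPKM untreated (-0.88 ± 0.19, adjusted p = 0.038). Of 19 such host genes 3 fell and 0 rose, with a median of -0.21. AC104534.1, which overlaps ECH1 on the opposite strand, measured 4.14, 4.27 and 3.95 against 12.8, 7.69 and 9.57 FPKM (-1.08 ± 0.16), while ECH1 did not pass (0.05 ± 0.07, adjusted p = 0.70). FAM160A1-DT fell by 0.87 and AL359504.2 by 0.75. Without CPT-11 replicate 3, 7 of the host genes fell; without the other CPT-11 libraries 1 fell in each case, and without untreated replicates 1, 2 and 3 the number was 1, 0 and 1.

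The shares of higher and lower genes varied with gene length. Among protein-coding genes spanning more than 200 kb, 2.40% were higher and 5.02% lower of 957, against 5.70% and 2.77% of the 3647 genes of 5 to 20 kb. The median difference of the longest genes was -0.05. It was -0.03, -0.01 and -0.12 in CPT-11 replicates 1, 2 and 3, and -0.03, 0.01 and 0.03 in untreated replicates 1, 2 and 3, so that replicates 1 and 2 were at or near the untreated range. Without replicate 3, 4.81% of the longest genes were higher and 8.26% lower. In genes under 5 kb the lower share was 3.68% with replicate 3 and 18.9% without it, and the median GC content of lower genes was 49.0% with it and 56.5% without it. The part of GC content in these differences was not tested beyond the correction named above.

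Markers of other cell types were near 0. The summed level of 8 fibroblast markers was 6.02 to 7.57 FPKM with CPT-11 and 4.17 to 5.10 FPKM untreated, with ACTA2 as the member that passed of 3 tested and LUM at 0 reads. The summed level of 10 blood markers was 1.23 to 2.26 FPKM with CPT-11 and 0.616 to 0.994 FPKM untreated, with CD3E and HBB at 0 reads. ITGAM, an integrin of myeloid cells, was the blood marker that rose, at 0.543, 0.448 and 0.786 against 0.194, 0.133 and 0.143 FPKM (0.46 ± 0.09). Endothelial markers summed to 0.349 to 0.420 FPKM with CPT-11 and 0.326 to 0.368 FPKM untreated. Their part in the results was not tested.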

How the data were processed

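Per the labels, total RNA of HCT-116 cells was extracted and made into NEBNext Ultra libraries. The authors deposited FPKM values, scaled to gene length and library size, for 59172 features. Tools named per the submitters' processing notes are DESeq2 1.16.1, featureCounts 1.5.0-p3, StringTie 1.3.3b and HISAT2 2.0.5. The build named there is hg19, whereas the coordinates of 58735 of 58735 Ensembl features equal those of GENCODE 29 on GRCh38; printed gene coordinates are these. How counting treated strand and multi-mapping reads is not stated, so overlapping genes and near-identical copies are uncertain.

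The FPKM values are whole multiples of 1 read per gene for 100% of values (within 0.01), which gave the depth of each deposited library, 14715553 to 16224271 reads in the 6 libraries. Counting error limits genes with few reads. Genes with at least 10 scaled reads in at least 3 of the 6 libraries and at least 15 in all were tested, 16844 in number and 13265 of them protein-coding. Limma 3.58.1 in R 4.3.3 was fitted to log2(FPKM + 1) of the 6 libraries with a trended variance, with Benjamini-Hochberg adjustment and a threshold of 0.05. The fit was tested on simulated reads that had the same spread in all genes and libraries. They had no library apart from its group and no trend with GC content, so that they do not cover the effect of CPT-11 replicate 3. The 6 libraries were fitted alone so that the other groups did not set the spread. Of the tested genes 98.6% had a GC content.

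The members and the 72 gene lists were chosen with earlier results of these data known. The named genes are the 14 largest rises and falls outside the p53 and mitosis lists (mean of at least 5 FPKM in the higher group, groups not overlapping, passing also without CPT-11 replicate 3), the 6 largest rises and falls in level, at most 3 per list by smallest p, the 4 largest noncoding rises and falls of at least 1 FPKM, 8 fixed genes and the 5 that replicate 3 moved most. Other named genes were chosen after their values were seen. In all, 19 alternative settings were run. Promoters are from RefSeq on GRCh38.p14, matched for 10688 genes. Some items that this rule names are not reported here.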

Additional observations from a re-analysis of the deposited data

How the results depend on the processing

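The number of genes that passed was 3030 with all 12 libraries in the fit (1601 higher, 1429 lower), 4500 with those but without CPT-11 replicate 3 (2106 and 2394), 536 without a filter on low values (354 and 182), 3285 after correction for GC content and length (1615 and 1670), 3888 after that correction without CPT-11 replicate 3 (1751 and 2137) and 6665 with sample weights (3079 and 3586). With 1 library left out it ranged between 263 and 2937, with 220 to 1393 higher and 43 to 1544 lower, the highest being that without CPT-11 replicate 3. The number with a 2-fold change was 321 with a pseudocount of 0.1, 28 with a pseudocount of 5 and 355 with voom on recovered reads. The cause was not tested.

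With the replicate number as a block 252 genes passed, 219 higher and 33 lower. Deviations of same-numbered libraries from their group means correlated at -0.34, 0.10 and -0.42. Deviations within a group of 3 depend on each other, and the labels name no pairs. Whether the numbers pair the samples therefore cannot be told from these correlations.

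Of 201 named calls 68 were lost without a filter, 125 under the block and 59 to 114 without 1 library other than CPT-11 replicate 3. Differences changed sign in RN7SL2, TOP1, CCL5 and RF00569, which did not pass with all 6 libraries. With 1 library left out, RN7SL2 ranged between -1.96 (without CPT-11 replicate 3, where it passed) and 0.25 (without CPT-11 replicate 2), TOP1 between -0.163 and 0.0354 (without CPT-11 replicate 3, the same with 12 libraries), CCL5 between -0.068 (without untreated replicate 3) and 0.213, with -0.0036 without CPT-11 replicate 1, and RF00569 between -0.3735 and 0.608 (without CPT-11 replicate 3, where it passed with adjusted p = 0.0050; the same difference with 12 libraries did not, adjusted p = 0.16), with 0.0266 without untreated replicate 2. RF00569, at -0.02 with all 6, was also 0.596 with the GC correction and without CPT-11 replicate 3 (adjusted p = 0.0091), 0.46 with sample weights, 0.0599 with the GC correction, 0.0329 with a pseudocount of 5, 0.0275 with totals less the 20 most counted genes and 0.0217 with library totals. Depth limits genes such as CGAS and IFNB1, with under 10 reads in each library.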

Other observations

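Genes of the immediate early response and of Wnt signalling went both ways. Of 32 immediate early genes 4 rose and 4 fell, with EGR1, a zinc-finger transcription factor, lower by 0.72 and ATF3 higher. Of 25 Wnt and stem cell genes 3 rose and 3 fell. MYC, a growth-promoting transcription factor, measured 74.6, 75.3 and 80.1 FPKM with CPT-11 and 104, 98.3 and 92.2 FPKM untreated (-0.35, adjusted p = 0.032). None of the 13 tested mitochondrially encoded genes passed, by limma on log2(FPKM + 1).

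RN7SL3, another signal recognition particle RNA, measured 2.89, 3.06 and 15.4 FPKM with CPT-11 and 13.4, 10.1 and 9.52 FPKM untreated. RF00569 went the other way, at 19.5, 21.5 and 4.77 FPKM with CPT-11 and 12.7, 14.1 and 12.5 FPKM untreated.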
